A study of Mus musculus with 21 samples.

Results

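The 7 genes described here are *Met* and 5 of its neighbours on mouse chromosome 6 (*Tes*, *Cav2*, *Cav1*, *Capza2* and *St7*), taken from the interval between 17 and 18 Mb, together with *Hgf*, which lies on chromosome 5 and encodes the ligand of the MET receptor. The 6 genes on chromosome 6 were chosen by their CPM in N-15, a control tumor. It held far more of their RNA than the other tumors, while RNA of *Erbb2* and its nearest neighbours was low there. *Hgf* was listed with them but did not share that height. Values of N-15 against the others are therefore given as a description, without a test. All 7 were among the 19315 genes that passed the filter on low counts, of 38730 genes with a count in any tumor. Only RNA was measured, so the raised genes are called a run and not an amplicon, and copy number at *Met* was not analysed here.

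Bulk total RNA was sequenced from 21 mammary tumors, 9 from NeuNT controls (N) and 12 from the RhoC cohort (R). Every mouse was a virgin female carrying FloxNeoNeuNT, an activated Neu cDNA placed behind a loxP-flanked stop in the *Erbb2* locus, and MMTV-CreNLST, a Cre line that, per the study, appears to be expressed in fewer cells or more weakly in the mammary epithelium than other MMTV-Cre lines. The RhoC cohort also carried R26(RhoC/+), a *RhoC* cDNA at Rosa26. Of the controls, 7 carried a *Gata4* loxP allele on 1 chromosome and 2, N-15 and N-17, did not. Tumors were taken at humane endpoint, and ages are not given in the labels. The 9 controls came from 9 mice. The 12 RhoC tumors came from 8 mice, of which mouse P497 gave 4 and mouse N9255 gave 2. For R-18 the labels give no mouse, and it was counted as a mouse of its own, 1 of the 8. R-21 bears the mouse that the study's list of tumors gives to R-20. Total counts were 47552423 to 100741339 per tumor, with 52420563 in N-15, and the labels name no batch. In bulk tissue, fewer cells of a type and less RNA per cell cannot be told apart.

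MET is a receptor tyrosine kinase of epithelial cells. HGF, secreted mainly by mesenchymal cells as an inactive precursor, is cut by serine proteases and then binds MET, which recruits GAB1, GRB2 and PI3-kinase and drives growth, survival and movement. In the mammary gland this pair takes part in branching of the ducts, and gain of *MET* is a known event in several carcinomas and a known route around block of ERBB-family receptors. Of the neighbours, *Cav1* and *Cav2* encode caveolins, the coat proteins of caveolae, *Capza2* encodes a subunit of the capping protein of actin filaments, *Tes* encodes testin, a LIM domain protein of focal adhesions, and *St7* is named for suppression of tumorigenicity.

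The promoters of 4 of these genes are shown to set the receptor beside the neighbour with the smallest excess in N-15, the neighbour with the largest RhoC-to-control fold by edgeR once N-15 is left out, and the unlinked ligand. Each sequence is the 250 bases before the RefSeq start on GRCm38.p6 (for *Cav1* and *Hgf*, of 2 starts, the one nearest the annotated gene start), read 5′ to 3′ on the plus strand, which all 7 genes use. Capitals mark matches on either strand to 4 short motifs, the GC box (GGGCGG), the AP-1 site (TGANTCA), the CCAAT box (CCAAT) and the TATA box (TATAAA). The *Met* window (chr6:17463707-17463956) ends 157 bases inside the gene as the deposited table gives it, the *Cav1* (chr6:17306085-17306334) and *Cav2* (chr6:17280935-17281184) windows end just before the gene's first base, and the *Hgf* window (chr5:16553245-16553494) ends 55 bases before it.
Met: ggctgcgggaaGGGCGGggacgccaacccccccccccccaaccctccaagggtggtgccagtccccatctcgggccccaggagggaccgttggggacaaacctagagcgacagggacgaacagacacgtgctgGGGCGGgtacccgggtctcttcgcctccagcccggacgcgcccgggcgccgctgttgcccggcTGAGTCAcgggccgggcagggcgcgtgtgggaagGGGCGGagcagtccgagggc
Cav1: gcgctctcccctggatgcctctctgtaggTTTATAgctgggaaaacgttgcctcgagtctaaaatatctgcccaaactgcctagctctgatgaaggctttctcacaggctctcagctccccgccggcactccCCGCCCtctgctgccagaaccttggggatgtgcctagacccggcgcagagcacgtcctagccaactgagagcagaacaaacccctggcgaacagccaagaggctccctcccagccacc
Cav2: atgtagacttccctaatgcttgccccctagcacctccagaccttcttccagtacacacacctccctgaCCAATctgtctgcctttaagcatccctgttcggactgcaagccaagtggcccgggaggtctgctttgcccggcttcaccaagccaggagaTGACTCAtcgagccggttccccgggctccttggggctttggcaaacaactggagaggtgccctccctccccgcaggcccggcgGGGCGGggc
Hgf: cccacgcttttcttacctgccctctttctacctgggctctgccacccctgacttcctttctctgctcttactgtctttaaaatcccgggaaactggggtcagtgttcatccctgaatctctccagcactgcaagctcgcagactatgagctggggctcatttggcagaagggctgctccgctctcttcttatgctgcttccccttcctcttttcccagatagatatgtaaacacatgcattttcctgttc
The *Met* window held 3 GC boxes and 1 AP-1 site, and the *Cav2* window 1 GC box, 1 AP-1 site and 1 CCAAT box. The *Cav1* window held 1 GC box and 1 TATA box, and the *Hgf* window none of the 4 motifs. Among 32851 RefSeq promoter windows of this length, 32.7% held a GC box, 6.75% an AP-1 site, 33.8% a CCAAT box and 12.4% a TATA box. The share of G and C was 74.0% in the *Met* window and 50.8% in the *Hgf* window.

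In N-15, *Met* (ENSMUSG00000009376.15, chr6:17463800-17573980) reached 19168 CPM (the count scaled to the size of the library with TMM factors). In the other 8 controls it lay between 59.2 and 254.7 CPM with a median of 165.2, and in the 12 RhoC tumors between 34.8 and 940.8 CPM with a median of 155.9. N-15 therefore stood 117-fold above the median of the other 20 tumors and 20.4-fold above the next tumor, R-6. The 980662 *Met* counts made up 1.87% of all counts of this tumor, the largest share of any tested gene, whereas by its median in the other tumors *Met* ranked at position 1152 of 19315.

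The other genes of the run were high in the same tumor. *Tes* (chr6:17065149-17105828) stood at 8841 CPM in N-15, against 47.3 to 119.7 CPM in the other controls and 79.0 to 201.5 CPM in RhoC tumors. *Capza2* (chr6:17636234-17666972) stood at 8970 CPM against 125.5 to 341.7 CPM and 108.7 to 218.7 CPM, and *Cav2* (chr6:17281185-17289115) at 3876 CPM against 22.3 to 141.6 CPM and 66.4 to 321.8 CPM. *St7* (chr6:17693947-17943025) stood at 695.2 CPM against 14.7 to 27.5 CPM and 10.2 to 23.8 CPM. For these genes N-15 lay far outside the range of both cohorts, and its excess over the next tumor was 43.9-fold for *Tes*, 26.2-fold for *Capza2*, 25.3-fold for *St7* and 12.05-fold for *Cav2*.

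*Cav1* (chr6:17306335-17341452) had the smallest excess of the 6. It stood at 781.8 CPM in N-15, 8.90-fold above the median of the other tumors but 1.93-fold above R-12, which held 406.1 CPM. *Cav1* lies between *Cav2* and *Met*, whose ratios to the median were 32.4-fold and 117-fold, so the ratio was not uniform along the run. It was also the most variable of the 6 genes outside N-15, with an SD of 1.27 on the log2 scale over 20 tumors (*St7* 0.33, *Capza2* 0.41, *Tes* 0.54, *Cav2* 1.03, *Met* 1.11).

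Per unit of transcript length, in the FPKM values of the authors, *Capza2* was highest of the run in N-15 at 3345 FPKM, followed by *Met* at 2772 and *Tes* at 2767, and these 3 took positions 4, 6 and 7 of 23203 genes. *Cav2* reached 1164 FPKM, *Cav1* 227.3 and *St7* 205.4. In the other 20 tumors the medians were 69.4 FPKM for *Capza2*, 36.4 for *Tes*, 35.3 for *Cav2*, 25.0 for *Cav1*, 23.6 for *Met* and 5.63 for *St7*. The ranges of *Tes*, *Cav2*, *Cav1* and *Met* overlapped in those tumors, so their order is not one of separate levels, whereas *St7*, at 2.97 to 8.14 FPKM, lay below every value of *Tes* (14.9 to 62.5 FPKM) and of *Capza2* (40.1 to 127.1 FPKM). Together the 6 genes took 4.13% of all counts in N-15 and between 0.0449% (N-6) and 0.148% (R-13) in the other tumors.

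**Figure D1:**
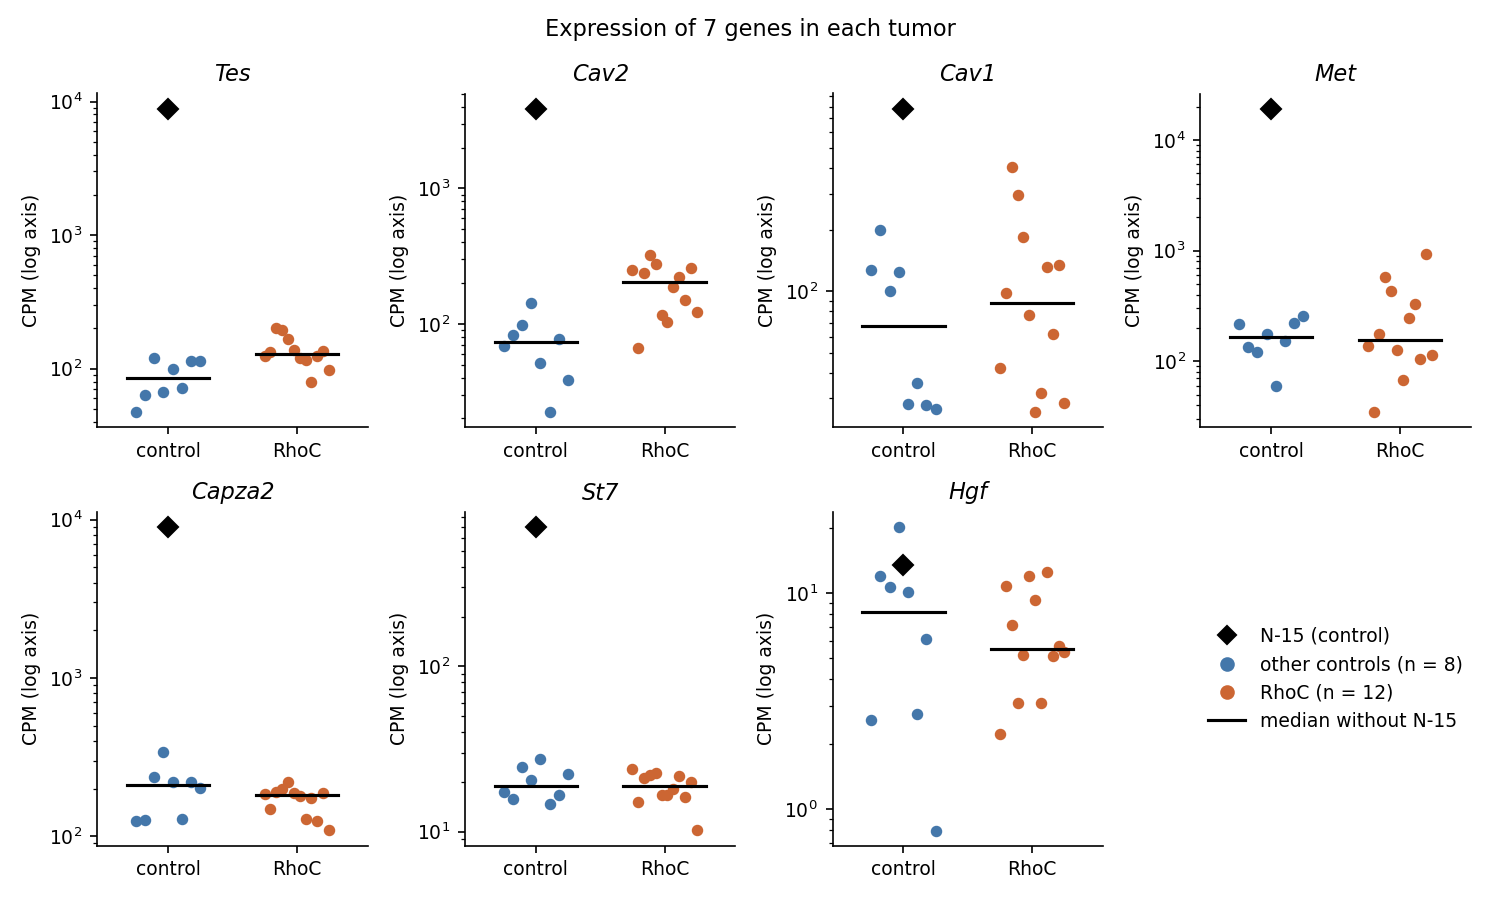
Expression of the 7 genes in each tumor, in CPM on a log axis, for controls and RhoC tumors. N-15 (diamond) lies above all other tumors for the 6 chromosome 6 genes, by 1.93-fold for Cav1 and by 12.05-fold to 43.9-fold for the other 5, and within the range of the controls for Hgf.

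*Hgf* (ENSMUSG00000028864.7, chr5:16553550-16620152) was not part of this pattern. N-15 held 13.5 CPM, second to N-4 with 20.2 CPM. The other controls lay between 0.799 and 20.2 CPM with a median of 8.15, and the RhoC tumors between 2.23 and 12.6 CPM with a median of 5.52. N-9, the lowest tumor, had 59 *Hgf* counts, so even the lowest value does not rest on single reads. The value of N-15 thus lay inside the spread of the controls, 2.28-fold above the median of the other 20 tumors, and 10.04% of all tested genes were at least 2-fold above that median in N-15.

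Being the highest of 21 tumors was itself common in N-15, at 5.50% of tested genes, and 1.37% stood at least 8-fold above the median of the other tumors. All 6 run genes met both conditions. A narrower group of 141 genes, 0.730% of those tested, stood at least 2-fold above every other tumor. Of these, 16 of 1044 tested genes lay on chromosome 6, and 17 of 746 on chromosome 15. Chromosomes 1 and 11 held 15 each. Of the 16, 13 lay inside the run, and they include genes chosen for this height and genes that overlap *Tes* or *St7*. By the gap to the next tumor on the log2 scale, *Tes* ranked at position 1 of all tested genes, *Capza2* at 2, *St7* at 4, *Met* at 9, *Cav2* at 15 and *Cav1* at 152.

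The edges of the run rest on genes with little RNA, so they are placed only roughly. Among tested genes in their order on chromosome 6, 15 consecutive genes from *Gm4876* (chr6:17065010-17171833) to *Wnt2* (chr6:17988940-18030585) were at least 2-fold above the median of the other tumors, over 0.966 Mb. All but *Wnt2* were also above every other tumor. *Wnt2*, which encodes a secreted WNT ligand, had 69 counts in N-15, or 1.35 CPM against a median of 0.374 and a highest other value of 1.605 CPM. At a threshold of 4-fold the run held 14 genes and ended with *Gm43844*, 0.878 Mb from its start.

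On the side before *Tes*, the nearest tested gene was *Tfec* (chr6:16833373-16898441), which encodes a transcription factor of the MITF family, at 2.44 CPM in N-15 against a median of 2.47. Beyond it, *Gm43924* and *Mdfic*, an inhibitor of MyoD family proteins, had log2 ratios of -0.89 and -0.35. On the far side, *Cftr* (chr6:18170687-18322768), the chloride channel of secretory epithelia, was at 0.0391 CPM (2 counts) in N-15, below the median of 1.73 CPM and above the lowest tumor. *Cttnbp2*, which encodes a cortactin-binding protein, and *Gm43843* had log2 ratios of -0.67 and -1.01. The unraised genes on both sides, *Tfec* and *Cftr*, left 1.27 Mb between them that held every raised gene of the 2-fold run.

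Most raised genes lay close to *Met*, where the choice of genes was made. The 15 tested genes within 0.5 Mb of *Met* are the 6 chosen genes, *Wnt2*, and others that overlap *Tes* or *St7*. Their state was thus largely set by the choice, and all 15 were at least 2-fold up in N-15, with a median log2 ratio of 5.09. None of 4 genes from 0.5 to 1 Mb and none of 5 genes from 1 to 2 Mb were. From 2 to 5 Mb 1 of 15 genes was, and from 5 to 10 Mb 1 of 24, against the 10.04% of all tested genes.

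**Figure D2:**
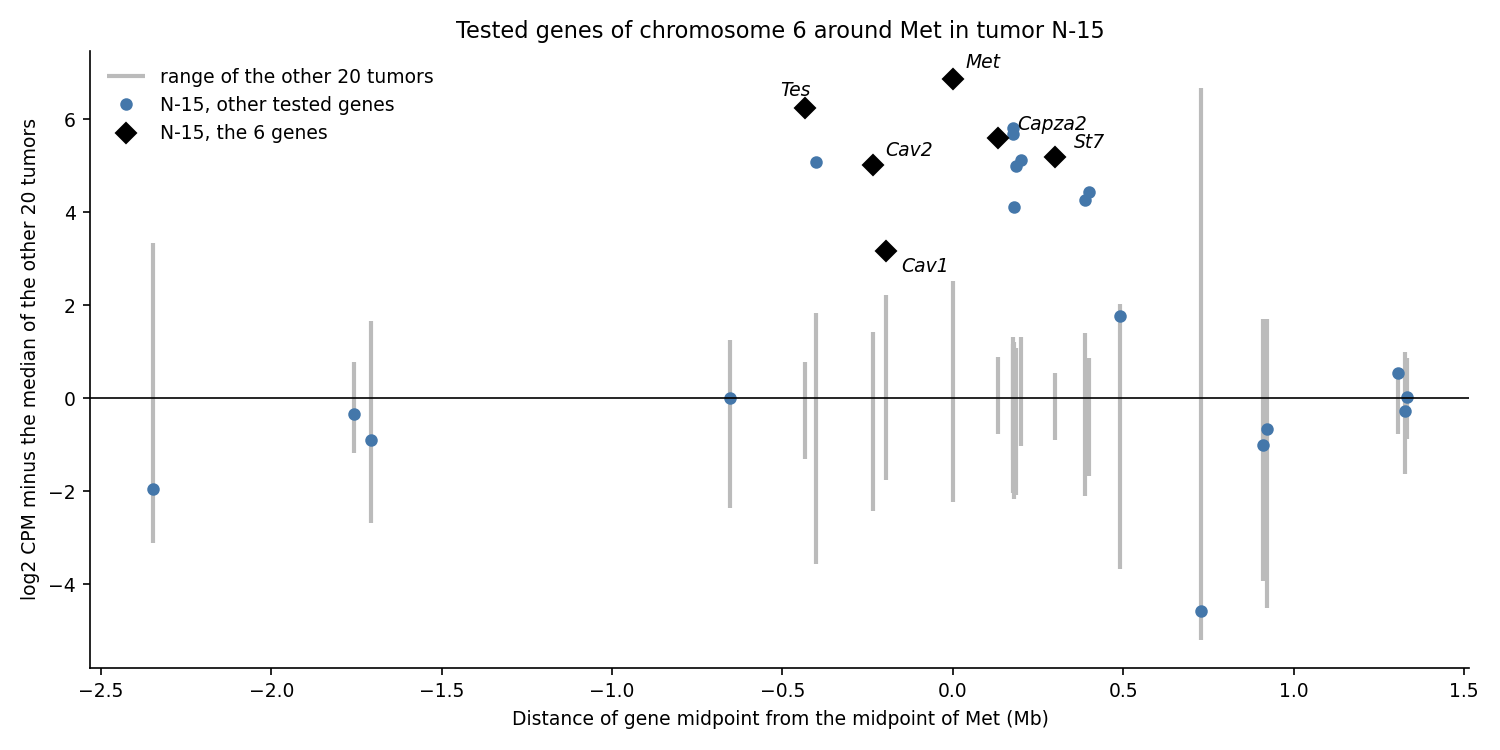
Log2 CPM of N-15 minus the median of the other 20 tumors for tested genes of chromosome 6 (y axis) against the distance of each gene's midpoint from that of Met in Mb (x axis), with grey bars for the range of the other tumors. The 6 genes (diamonds) and 8 other annotated genes lie above the grey bars, Wnt2 at 1.77 lies within its bar, and Tfec and Cftr on both sides are not raised.

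The interval from 17 to 18 Mb holds 26 annotated genes, of which 15 passed the filter. Besides the 6 genes and *Wnt2*, the tested ones were *Gm4876*, annotated antisense to *Tes*, and 7 genes that lie within *St7* on the same strand. Of these 7, 5 are annotated as misc_RNA, and *Gm43533* and *Gm43844* as TEC, a class of transcripts that await experimental support. *Gm4876* was at 19.5 CPM in N-15 against at most 2.01 CPM elsewhere. Of the genes inside *St7*, *Gm43533* was at 61.0 CPM (highest other 4.36), *Gm43844* at 35.6 (2.98), *Gm27960* at 16.2 (0.695), *Gm27365* at 13.99 (0.582), *Gm28008* at 12.7 (0.817) and *Gm27542* at 5.67 (0.731). *Gm27402* had 133 counts in N-15 and at most 21 in another tumor. Library preparation kept strand, but the strand setting of the counting is not given in the sources used here, so reads of *Gm4876* and of *Tes* may not be told apart. The 7 genes inside *St7* share its strand, so strand cannot separate their reads from those of *St7* transcripts, whatever the setting.

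Of the 11 genes that did not pass the filter, 7 had a count in N-15 and 6 had their highest count there. *Gm15473*, beside the start of *Tes*, had 498 counts against at most 27 in another tumor, and *Gm15581*, antisense across *Cav2* and *Cav1*, had 393 against at most 25. *Gm27444* had 18 counts against 2, *Gm27755* 17 against 3, *Gm27762* 4 against 1 and *Gm29591* 3 against 2. *D830026I12Rik* had 2 counts in N-15 and 4 in another tumor. *Gm13898*, *Gm13899*, *Gm42852* and *Gm26738* had no count in N-15 and at most 3 in any tumor.

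No other tumor raised the whole run. Against the median of the remaining tumors, N-15 had all 6 genes at least 2-fold up. R-13 and R-14 had *Cav2*, *Cav1* and *Met* up, R-6 *Cav2* and *Met*, R-1 *Cav2*, and R-12 and N-17 *Cav1*, while *Tes*, *Capza2* and *St7* were at least 2-fold up in N-15 alone. *Cav2*, *Cav1* and *Met* were at least 2-fold down in N-6. *Capza2* and *St7* lay between 108.7 and 341.7 CPM and between 10.2 and 27.5 CPM in the other 20 tumors, within 2-fold of their medians.

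Next to N-15, *Met* was highest in the RhoC tumors R-6 (940.8 CPM), R-13 (577.8 CPM) and R-14 (427.3 CPM). The study's pathology lists these as squamous cell carcinomas. R-13 and R-14 came from mouse P497 and R-6 from mouse N9255, so they are not 3 independent cases. Marker levels in these 3 tumors, which were picked for high *Met*, are given as a description. The summed level of 6 basal epithelial genes (*Krt5*, *Krt14*, *Krt17*, *Trp63*, *Acta2* and *Myh11*) was 17218 CPM in R-6, 12642 in R-13 and 5946 in R-14, against medians of 170.1 in the other controls (highest 3028) and 426.9 in the RhoC tumors, and it was 465.1 CPM in N-15. The co-receptors of MET were high there too, at 13808, 13662 and 7025 CPM against medians of 2804 and 3038. The fibroblast markers were at 4467, 11289 and 2206 CPM in R-6, R-13 and R-14, against medians of 3178 and 3192. The 3 tested genes of squamous keratinocytes (*Krt10*, *Ivl* and *Sbsn*) summed to 90.3, 64.4 and 25.96 CPM in these tumors, against medians of 5.18 and 2.59 CPM, and to 22.7 CPM in N-15. A control other than N-15 reached 355.5 CPM for these 3 genes, while *Met* was at most 254.7 CPM in those controls. The part of these cells in the *Met* level was not tested.

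Tumors of 1 mouse differed widely in *Met*. In mouse N9255, R-6 had 940.8 and R-7 113.9 CPM, an 8.26-fold difference. In mouse P497, *Met* ran from 67.8 CPM in R-16 to 577.8 CPM in R-13, an 8.53-fold difference, and *Cav1* from 25.7 to 296.0 CPM. *Capza2* differed by 1.22-fold among those 4 tumors.

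In N-15, *Erbb2* and the genes nearest to it on chromosome 11 were low against the other controls. *Erbb2* itself, the locus that carries the Neu cDNA, was at 57.9 CPM, the lowest of 21 tumors, as N-15 was for 4.72% of tested genes. It was at 599.7 to 2725 CPM (median 1311) in the other controls and 255.7 to 1851 CPM (median 734.3) in RhoC tumors. How reads of the Neu cDNA were counted on mouse *Erbb2* was not tested. *Grb7*, an adaptor gene next to *Erbb2*, was at 42.2 CPM in N-15, below the other controls (892.7 to 2422 CPM) and within the RhoC range (16.8 to 168.2 CPM). *Mien1* was at 16.9 CPM, the lowest tumor, against 317.4 to 2126 CPM and 18.7 to 166.5 CPM. *Pgap3* was at 18.4 CPM, against 374.3 to 2345 CPM and 6.58 to 31.6 CPM.

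Farther from *Erbb2* the other controls were less uniform. *Stard3*, a cholesterol-binding protein gene, was at 67.0 CPM in N-15, above every RhoC tumor (28.7 to 49.9 CPM), while the other controls ran from 26.8 to 2868 CPM. Of these controls only N-7 (26.8 CPM) lay below N-15, and the next lowest was N-1 at 566.5 CPM. *Ppp1r1b* was at 1.19 CPM, inside the ranges of both the other controls (0.683 to 525.1 CPM) and the RhoC tumors (0.242 to 9.88 CPM). Here too only N-7 (0.683 CPM) lay below N-15 among those controls, and the next lowest was N-9 at 21.6 CPM. *Med1* and *Cdk12*, at 135.5 and 148.4 CPM, also lay inside the range of the other controls, whose lowest values were 128.7 and 129.0 CPM. N-15 was thus the control with high *Met* and the control with the lowest *Erbb2*, *Grb7*, *Mien1* and *Pgap3*. With N-15 left out, 7 of the 8 genes, all but *Erbb2*, were lower in RhoC tumors by edgeR, against 0.884% of all genes, and the same number was lower with N-15 included, against 0.129%. With the counts of each mouse summed, *Grb7*, *Pgap3* and *Stard3* were called with all controls, and these and *Mien1* without N-15, and limma voom with mouse as a random effect called the same genes of the 8. For *Ppp1r1b*, *Med1* and *Cdk12* the adjusted p without N-15 was then 0.0751, 0.126 and 0.134 for the sums and 0.0959, 0.1701 and 0.162 for voom.

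**Figure D3:**
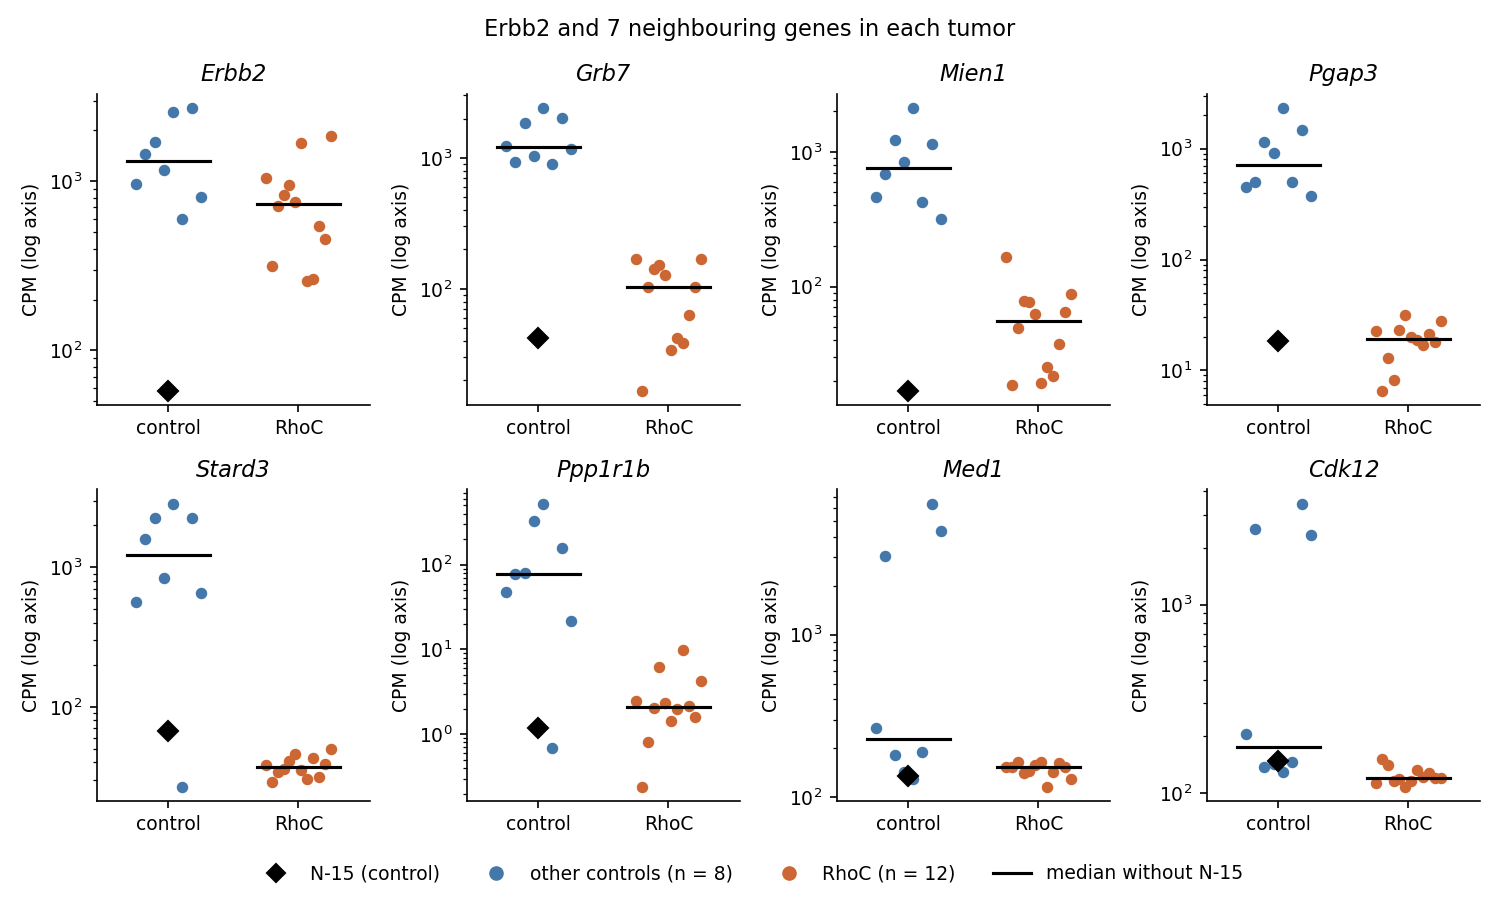
Expression of Erbb2 and 7 neighbouring genes in each tumor, in CPM on a log axis. N-15 (diamond) is the lowest of all tumors for Erbb2 and Mien1, and lies among the RhoC tumors for Grb7 and Pgap3. It lies inside the range of the other controls for Med1 and Cdk12, and for Stard3 and Ppp1r1b only because N-7 is lower.

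The median of no list of genes around MET signalling reached the ratios of the run in N-15. Of 8 tested genes for HGF activation and its inhibitors, N-15 was neither highest nor lowest in any, and their median log2 ratio was 0.10, against -0.02 over all tested genes. *St14*, encoding matriptase, a protease that cuts pro-HGF, was at 295.8 CPM in N-15 against 117.6 to 354.4 CPM in the other controls. *Spint1*, encoding an inhibitor of these proteases, was at 112.9 CPM against 75.8 to 321.7 CPM. Among 7 co-receptors, including *Cd44* and *Plxnb1*, and 22 adaptors and effectors, from *Gab1* and *Grb2* to *Akt1*, N-15 was also never at an extreme, with medians of 0.18 and 0.01.

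The same held for 13 genes of MET down-regulation such as *Cbl*, which encodes its ubiquitin ligase (median 0.03), for 8 tested transcriptional or translational regulators (0.28) and for 16 targets and feedback genes of ERK signalling (0.02). In the last list *Dusp6* was at 627.3 CPM in N-15 against 155.8 to 856.1 CPM in the other controls, and *Fosl1* at 9.58 CPM against 0.399 to 5.69 CPM in the controls and up to 76.6 CPM in RhoC tumors. The paralogous pair *Mst1* and *Mst1r*, the ligand and receptor closest to HGF and MET, stood at 0.0977 and 1.51 CPM in N-15, within the range of the other controls.

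Among partners of the other run genes, the caveola list had a median log2 ratio of 0.49 in N-15, with none of 8 tested genes at an extreme, and the list of capping proteins one of 0.07. In the latter N-15 was highest for *Twf2*, a twinfilin gene, at 27.1 CPM against at most 25.6 CPM elsewhere. *Capzb*, encoding the partner subunit of *Capza2*, was at 227.8 CPM against 144.9 to 319.9 CPM in the other controls. The 16 receptor kinase genes had a median log2 ratio of -0.67. Without *Erbb2*, whose low level was part of the choice of genes, the median of the other 15 was -0.42 and their summed level in N-15 was 1807 CPM, within the other controls (1274 to 3132 CPM), below every RhoC tumor (1875 to 3473 CPM) and at position 19 of 21. Of the 16, N-15 was lowest for *Erbb2* and highest for *Ddr1*, a collagen receptor, at 226.1 CPM against at most 222.4 CPM elsewhere. *Egfr* was at 94.1 CPM and *Erbb3* at 355.9 CPM in N-15, within the other controls (45.0 to 404.7 and 261.8 to 547.5 CPM). *Erbb4* was at 0.0195 CPM, under the level of 3 counts, against 0 to 45.2 CPM with a median of 2.48 in the other controls and 0.0739 to 66.3 CPM in RhoC tumors.

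**Figure D4:**
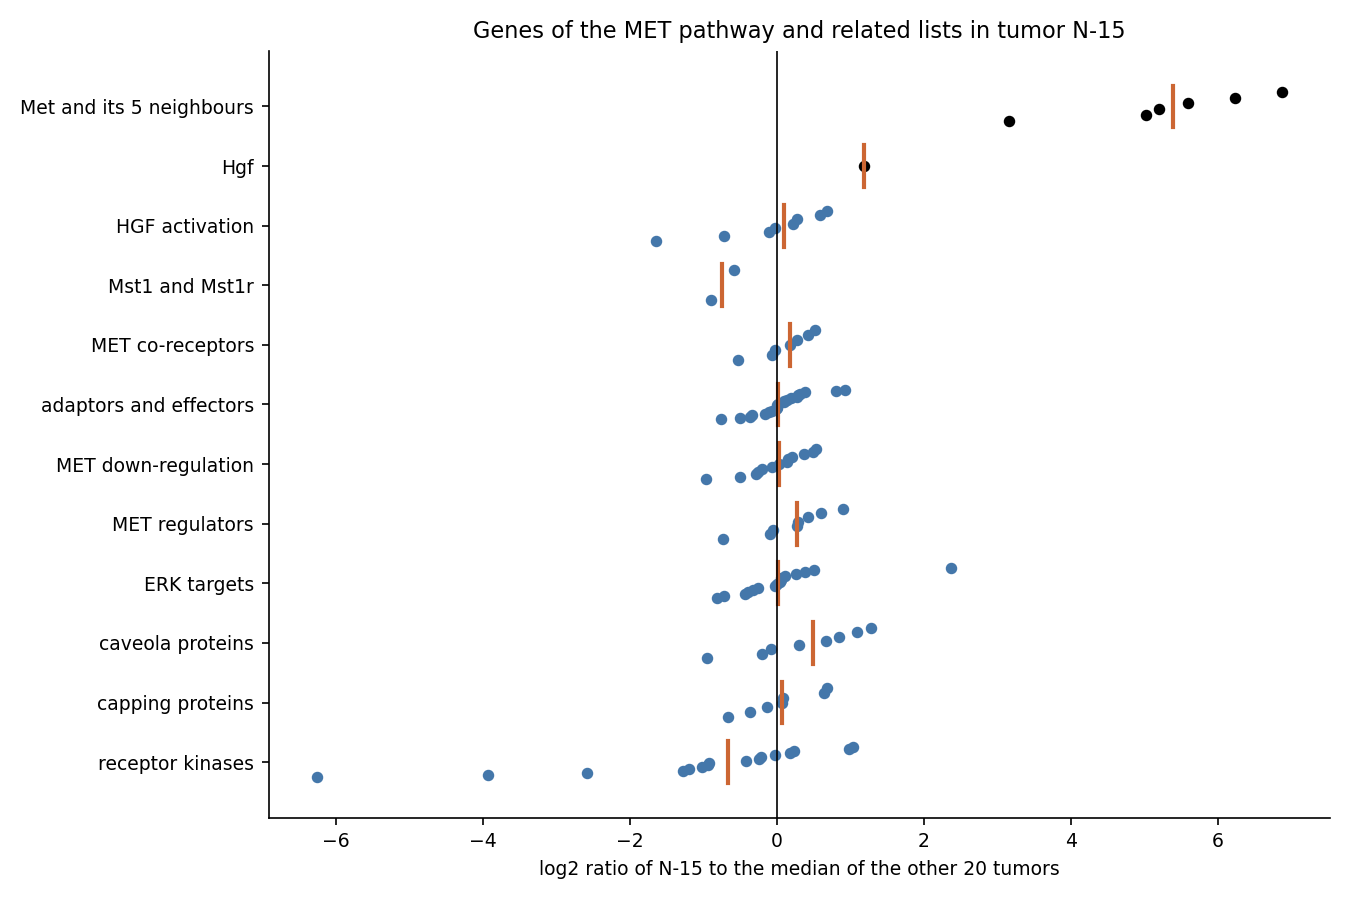
Log2 ratio of N-15 to the median of the other 20 tumors for each gene (points) of 12 lists, with the median of each list as a bar. Met and its 5 neighbours lie at 3.16 to 6.87, Hgf at 1.19, and the medians of the other 10 lists between -0.74 and 0.49.

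Cell type markers in N-15 were those of an epithelial tumor. *Epcam* and *Cdh1* were at 490.2 and 905.3 CPM, inside the range of the other controls. N-15 was the highest of 21 tumors for 3 of 8 luminal genes, the keratins *Krt8* (1554 CPM, other controls 179.0 to 555.6) and *Krt18* (952.9 CPM, 151.8 to 423.9) and the epithelial transcription factor gene *Elf3* (212.9 CPM, 11.4 to 150.1), whereas *Krt19* was at 2.29 CPM. The summed levels of basal, squamous, fibroblast, endothelial, adipocyte and muscle markers in N-15 lay inside the range of the other controls, and the adipocyte gene *Cfd* had 0 counts in N-15, which allows up to 3 counts or 0.0586 CPM. The summed leukocyte level, at 428.2 CPM, lay just above their highest value of 427.7 CPM, and *Hgf* of N-15 was second of 21 as well. The part of these cells in any value above was not tested.

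The RhoC cohort was compared with the controls to ask whether ectopic RhoC went with a change of these genes. In the edgeR quasi-likelihood test over all 21 tumors, none of the 7 genes passed the threshold of 0.05 on the adjusted p, which 0.223% of tested genes passed. Log2 fold changes, RhoC minus control, were -3.06 ± 0.99 (SE) for *Met* (adjusted p = 0.113), -2.97 ± 0.86 for *Tes* (0.0901), -2.79 ± 0.71 for *Capza2* (0.0714) and -2.35 ± 0.65 for *St7* (0.0821). They were -1.36 ± 0.76 for *Cav2*, -0.35 ± 0.63 for *Cav1* and -0.36 ± 0.43 for *Hgf*.

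N-15 is 1 of the 9 controls, and leaving it out changed these values. Without it, the edgeR log2 fold change was 0.71 ± 0.49 for *Met*, 0.64 ± 0.20 for *Tes* (adjusted p = 0.0779), 0.60 ± 0.55 for *Cav1*, -0.24 ± 0.18 for *Capza2*, -0.10 ± 0.16 for *St7* and -0.26 ± 0.45 for *Hgf*. *Cav2* alone was called, at 1.41 ± 0.33 (adjusted p = 0.0418), where 1.77% of genes were called in either direction. That call was lost when tumors of 1 mouse were not taken as independent, with an adjusted p = 0.0929 in limma voom with an estimated within-mouse correlation and an adjusted p = 0.141 in edgeR with counts summed by mouse. The direction of the edgeR values of *Met*, *Tes*, *Cav2* and *Cav1* therefore turned when this tumor was left out, and *Capza2* and *St7* then differed by little more than their SE or by less. For *Met* the RhoC median was 0.943 times that of the other controls, and 6 of 12 RhoC tumors lay above the control median, with R-6, R-13 and R-14 the highest.

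*Cav2* was higher in most RhoC tumors than in the remaining controls. The 8 controls lay between 22.3 and 141.6 CPM with a median of 72.9, and the 12 RhoC tumors between 66.4 and 321.8 CPM with a median of 204.5. Of the RhoC tumors, 8 exceeded the highest of these controls, namely R-1, R-2, R-6, R-12, R-13, R-14, R-18 and R-21, and R-10 was the lowest. The exact permutation test on log2 CPM, 2-sided, gave a difference of 1.46 without N-15 (p = 0.0005 over 125970 labelings, with 7 genes tested) and 0.80 with it (p = 0.249 over 293930 labelings).

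*Tes* showed a smaller difference of the same kind. Without N-15, the controls lay between 47.3 and 119.7 CPM with a median of 85.6, and the RhoC tumors between 79.0 and 201.5 CPM with a median of 129.2. Again 8 of 12 RhoC tumors exceeded every one of these controls, and 4 of the 8 controls lay below every RhoC tumor. The difference was 0.67 on the log2 scale (exact permutation p = 0.00318), but in edgeR *Tes* missed the threshold. For *Cav1*, *Met*, *Capza2*, *St7* and *Hgf* the exact permutation p without N-15 was between 0.332 and 0.872.

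The tumors of 1 mouse are not independent, and the within-mouse correlation was 0.27. With the counts of each mouse summed and N-15 left out, the edgeR log2 fold change of *Cav2* was 1.34 ± 0.33 (adjusted p = 0.141) and not called, where 0.0208% of genes were, and the exact permutation test over 8 and 8 mice gave 1.43 (p = 0.00202). *Tes* gave 0.57 ± 0.22 in edgeR (adjusted p = 0.251) and 0.59 in the permutation test (p = 0.0177). With only the 7 controls that carry the *Gata4* loxP allele, which leaves out N-17 as well, *Cav2* was 1.44 ± 0.35 (adjusted p = 0.0409, 2.22% of genes called) and *Tes* 0.58 ± 0.20 (adjusted p = 0.102).

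DESeq2, the tool of the study, called *Cav2* (1.27 ± 0.32, adjusted p = 0.00657) and *Tes* (0.59 ± 0.20, adjusted p = 0.0464) as higher in RhoC tumors with all 21 tumors, where 6.24% of genes were called. This tool replaced the N-15 counts of 5 run genes by a trimmed mean before fitting, for example 980662 by 9354 for *Met* and 198314 by 7238 for *Cav2*, so these values rest on 20 measured and 1 imputed count. It also replaced the *Met* count of R-6, 46902 by 8986. *Cav1* of N-15 was not replaced, and its DESeq2 value, -0.35 ± 0.60, was negative as in edgeR. Without N-15, DESeq2 gave 1.41 ± 0.33 for *Cav2* (adjusted p = 0.00153) and 0.64 ± 0.21 for *Tes* (adjusted p = 0.0264), with 10.2% of genes called.

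**Figure D5:**
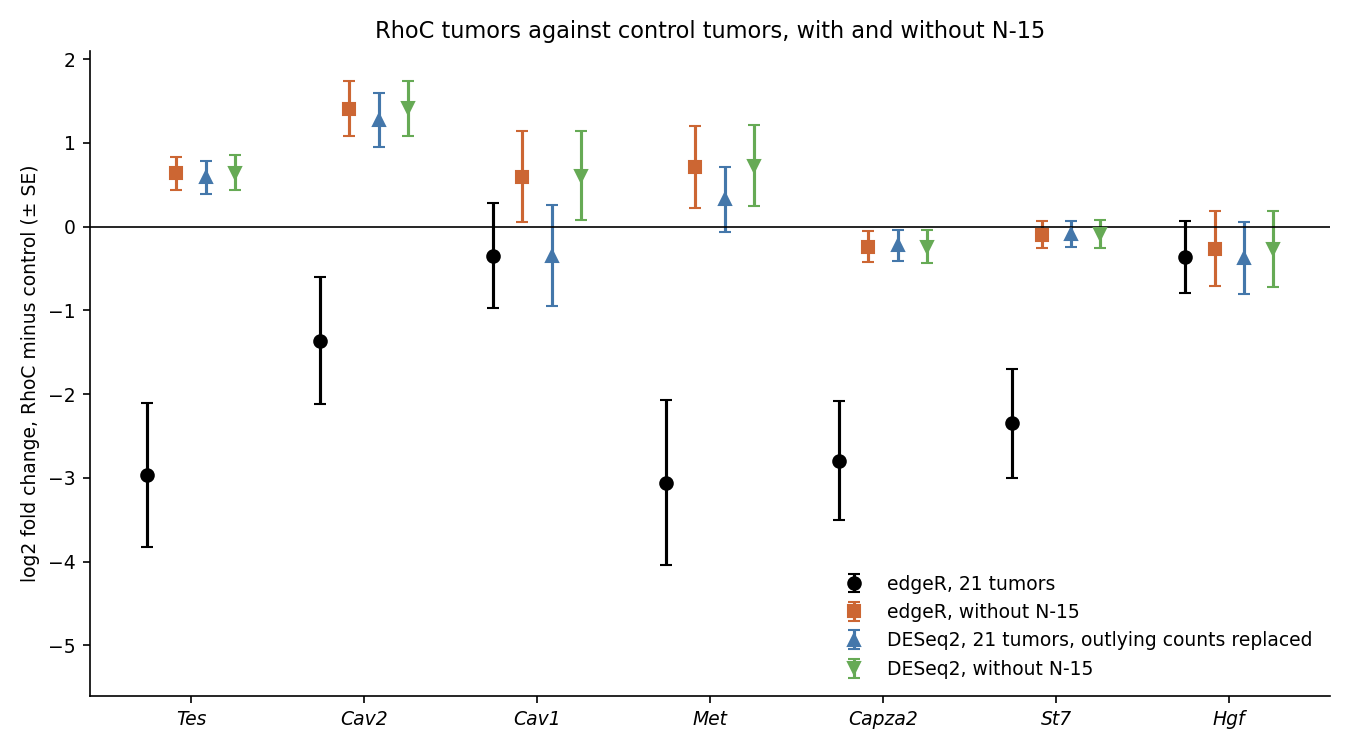
Log2 fold change of RhoC against control tumors for the 7 genes, with SE, by edgeR and DESeq2 with and without N-15. The edgeR values of Tes, Cav2, Cav1 and Met change sign when N-15 is left out, and Cav2 is at 1.41 with both tools without N-15.

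The cell type markers bear on this comparison as well. The summed basal markers lay between 98.1 and 3028 CPM in the other controls and between 47.9 and 17218 CPM in RhoC tumors, and none of the 6 genes was called with or without N-15. After N-15, *Cav2* was highest in R-13 (321.8 CPM) and R-14 (278.3 CPM), both of mouse P497, and R-6 (257.9 CPM) of mouse N9255. These are the same 3 squamous cell carcinomas that held the high basal sums given above. The 3 tested squamous genes summed to between 3.23 and 355.5 CPM in the other controls and between 1.67 and 90.3 CPM in RhoC tumors. One of them, the keratin gene *Krt10*, was lower in RhoC tumors by edgeR without N-15 (-5.24 ± 1.08, adjusted p = 0.0306), with 0.0724 to 284.7 CPM and a median of 1.47 in the other controls and 0.488 to 2.54 CPM with a median of 1.03 in RhoC tumors, and it was not called with counts summed by mouse (adjusted p = 0.145). Fibroblasts, endothelial cells, adipocytes and muscle make caveolins. Fibroblast markers summed to between 249.9 and 7176 CPM in the other controls and between 1384 and 11289 CPM in RhoC tumors, and endothelial markers to between 76.2 and 548.3 CPM and between 112.7 and 423.6 CPM, again with none called. The 2 tested adipocyte genes summed to between 1.18 and 389.5 CPM and between 0.676 and 66.8 CPM, and the 3 tested muscle genes to between 2.03 and 15888 CPM and between 1.16 and 1964 CPM. Their median log2 fold changes without N-15 were -2.49 and -2.05, with none called. The part of these cells in the *Cav2* difference was not tested.

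Of the lists around MET, few genes were called between cohorts. With all 21 tumors none of 91 genes in 9 lists was called by edgeR, and 19 had an unadjusted p under 0.05, which 20.5% of all tested genes had. Without N-15, *Itgb4*, which encodes the integrin β4 subunit that pairs with α6 and associates with MET, was higher in RhoC tumors (2.04 ± 0.51, adjusted p = 0.0471), and so was *Hgs*, an endosomal sorting gene (0.79 ± 0.19, adjusted p = 0.0440). These were the 2 called of the 91, where 1.77% of all genes were. Neither was called with counts summed by mouse and without N-15 (adjusted p = 0.165 for *Itgb4* and 0.144 for *Hgs*). None of the HGF activation genes, adaptors, ERK targets, caveola or capping protein genes was called in that fit. *Plau*, encoding a protease that can cut pro-HGF, had a median of 66.3 CPM in RhoC tumors and 37.4 CPM in the other controls (a log2 fold change of 2.47 ± 0.75 without N-15, adjusted p = 0.0770).

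Across the 20 tumors without N-15, *Met* and its neighbours varied in part together. As a description over tumors that share depth, tissue makeup and in part the mouse, the Spearman correlation with *Met* was 0.49 for *Cav2*, 0.41 for *Cav1*, 0.34 for *St7*, 0.23 for *Capza2* and 0.11 for *Tes*, and -0.30 for *Hgf*. Between *Cav2* and *Cav1*, whose products assemble together, it was 0.55, lower than for *Capza2* with *St7* (0.69) and *Tes* with *Cav2* (0.58). With N-15 included the Pearson r of *Met* with *Tes* was 0.79, against 0.15 without it, so that value rests on 1 tumor.

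Among 14515 genes compared over the 20 tumors, those most like *Met* by Spearman correlation were *Trbc2* (0.86), a T cell receptor constant gene, *Slc25a48* (0.85), a mitochondrial carrier gene, *Gm42547* (0.82), *G930009F23Rik* (0.80) and *Rhov* (0.80). In N-15, *Slc25a48* was at 21.2 CPM against a median of 1.29, and *Rhov* at 2.21 against 2.87. Those most like *Hgf* were *Kctd12* (0.94), *Arhgap15* (0.92), *Tm6sf1* (0.91), *Dock2* (0.90) and *Gm45191* (0.90). *Dock2* and *Arhgap15* encode regulators of Rac that are known from leukocytes, and in N-15 they stood at 44.7 and 8.72 CPM against medians of 28.4 and 4.36 CPM.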

How the data were processed

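Bulk RNA of 21 mammary tumors was analysed. The counts of each tumor are whole numbers that the authors deposited without normalization, from reads trimmed with Trim Galore 0.5.0, aligned with STAR 2.6.0c to GRCm38.p6 and counted with HTSeq 0.6.1p2, where reads that mapped to several places or genes were left out. The deposited tables also hold FPKM values scaled by the authors, used here where genes are compared per length, and gene positions, used for 23203 genes (GENCODE M21 for the others). Their fold changes and p-values from DESeq2 and edgeR were not used. The tumors were not pooled.

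Genes were filtered with filterByExpr by cohort (19315 of 38730 genes kept) and tested with edgeR 4.0.16 (TMM, glmQLFit, glmQLFTest, no covariates) in R 4.3.3, with Benjamini-Hochberg adjustment over all tested genes and a threshold of 0.05. SE is the log2 fold change divided by the square root of F. Log2 CPM uses a prior count of 2. Single values were tested by exact permutation of tumor labels, 2-sided. Alternatives were DESeq2 1.42.0, limma 3.58.1 voom with mouse as a random effect, library size in place of TMM, all genes with a count, counts summed by mouse, the tumor number as a block, only *Gata4* loxP/+ controls, no tumors of mouse P497, and each tumor left out. DESeq2, the sums by mouse and voom without N-15 were added after seeing the data. On simulated counts with 200 of 19315 genes changed by a log2 fold of 2, edgeR called 156 genes, 7 of them unchanged. The simulated tumors were independent, without shared mice or an outlying tumor, so these numbers do not give the error rate in these data.

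The genes, lists and tests were chosen with earlier results of these data known. Genes named are the 7, every other annotated gene from 17 to 18 Mb of chromosome 6, the 3 tested genes on each side of the run, the *Erbb2* block, genes of the lists that were called or in which N-15 was highest or lowest (at most 4 per list), and the 5 genes most like *Met* and *Hgf*. List genes outside this rule were named as examples after their values were seen. Controls came from separate mice, RhoC tumors in part from the same mouse, so p-values over tumors count tumors of 1 mouse as separate. Intervals and counts cover counting error only where no replicate is given.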

Additional observations from a re-analysis of the deposited data

Results flagged for a closer look

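Among the 9 controls, the gap of the most extreme tumor to the next, as a share of the whole range of log2 CPM, exceeded Dixon's critical value of 0.493 for 6 genes, each time for N-15. N-15 was highest for *St7* (0.838), *Tes* (0.823), *Capza2* (0.765), *Met* (0.748) and *Cav2* (0.642), and lowest for *Erbb2* (0.607). *Cav1*, at 0.404 with N-15 highest, and *Hgf*, at 0.361 with N-9 lowest, were under that value. Chance flags about 1 in 20 groups. The chromosome 6 genes were chosen for the height of N-15, and the low *Erbb2* of N-15 was part of that choice. The shares therefore describe the gap and test nothing.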

How the results depend on the processing

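With library size, DESeq2 size factors, the FPKM of the authors or the other 8 controls as reference, the log2 ratio of each of the 7 genes moved by less than the SD of the other tumors. Against the highest other tumor in place of the median, the log2 ratios were 5.46 for *Tes*, 3.59 for *Cav2*, 0.94 for *Cav1*, 4.35 for *Met*, 4.71 for *Capza2*, 4.66 for *St7* and -0.58 for *Hgf*, lower by construction. Genes at least 2-fold above every other tumor in N-15 numbered 141, and 267 with all genes that had a count.

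The edgeR count of genes called between cohorts was 43. It was 27 with library size, 3 with counts summed by mouse, 3 with voom and mouse, 3 without mouse P497, 438 with only *Gata4* loxP/+ controls and 1206 by DESeq2, and without N-15 it was 4 for sums by mouse, 5 for voom and 1992 for DESeq2. Leaving out 1 tumor gave 14 (without N-9) to 346 (without N-15), and at most 108 without any other tumor. Of the 7 genes, 0 were called in the edgeR fit of 21 tumors, 2 by DESeq2 with and without N-15, 1 with only *Gata4* loxP/+ controls, 0 to 1 when 1 tumor was left out, and 0 without N-15 for sums by mouse (*Cav2* adjusted p = 0.141) and for limma voom with mouse (*Cav2* adjusted p = 0.0929). The cause of the difference between tools was not tested.

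The sign turned as follows. *Tes* was 0.59 by DESeq2 and 0.58 with *Gata4* loxP/+ controls, and without N-15 it was 0.64 by edgeR, 0.64 by DESeq2, 0.57 by mouse and 0.63 by voom. *Cav2* was 1.27 by DESeq2, 1.44 with *Gata4* loxP/+ controls and 0.80 by voom, and without N-15 it was 1.41 by edgeR, 1.41 by DESeq2, 1.34 by mouse and 1.45 by voom. *Cav1* was 0.92 with *Gata4* loxP/+ controls and 0.053 by voom, and without N-15 it was 0.60 by edgeR, 0.61 by DESeq2, 0.54 by mouse and 0.46 by voom. *Met* was 0.33 by DESeq2 and 0.67 with *Gata4* loxP/+ controls, and without N-15 it was 0.71 by edgeR, 0.73 by DESeq2, 0.39 by mouse and 0.19 by voom. *Hgf* was 0.10 by voom without N-15. With each tumor left out in turn, log2 fold changes ran from -3.13 to 0.64 for *Tes*, -1.52 to 1.41 for *Cav2*, -0.67 to 0.60 for *Cav1*, -3.42 to 0.71 for *Met*, -2.95 to -0.24 for *Capza2*, -2.49 to -0.10 for *St7* and -0.53 to -0.12 for *Hgf*, and without any tumor but N-15 the sign of none of the 7 turned.

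In the exact permutation test, leaving out N-15 turned *Tes* to 0.67, *Met* to 0.27 and *Hgf* to 0.087 and brought *Cav2* to 1.46, and by mouse these were 0.59, 0.18, 0.069 and 1.43. Library size brought *Capza2* to -0.83 (exact permutation p = 0.0429), a value that holds the N-15 level used to choose the gene, and without N-15 it was -0.19 (exact permutation p = 0.332). DESeq2's imputed counts, and the smaller number of samples by mouse, are part of these settings.

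Tumor numbers shared by N and R (1, 6, 7 and 15) did not pair the samples, since the correlations of their deviations were -0.24, -0.18, -0.0029 and 0.022. With the number as a replicate block, 0 genes were called and *Cav2* was 1.23, from 8 tumors in pairs.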
